A study of Mus musculus with 12 samples.

Results

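The miR-200 family holds 5 microRNAs (miRNAs), miR-200a, miR-200b, miR-200c, miR-141 and miR-429. It was described here in mouse pancreatic islets after maternal protein restriction. Members were picked by name, without the species prefix and the strand suffix. The starred minor strands were left out and every assay of a name was kept. This gave 7 assays of the 750 miRNA assays on the panel, with a pair of assays each for miR-200b and miR-200c. The islets came from male C57BL/6 offspring aged 2 to 3 months whose dams ate either a low-protein diet (LP0.5) or the control diet while pregnant, with 6 samples labelled for each diet. Litter, pooling of animals and the offspring's own diet are unstated in the labels used here. Islets were hand-picked after collagenase digestion and kept in culture overnight, and their total RNA was read by TaqMan real-time PCR. All values below are single linear ratios from the authors' deposited table, headed as the LP0.5 value against Control. They carry no replicate values, so no SD, interval or p-value can be given and no ratio has a replicate check. Cycle values per sample and the level of any miRNA were not analysed here, so the islet label was not checked against marker levels.

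MiRNAs are short RNAs that pair with target messenger RNAs mainly through the seed, the bases near their 5′ end, and lower the output of those targets. The miR-200 family is known for keeping cells epithelial. It represses Zeb1 and Zeb2, transcription factors that shut off E-cadherin, and these factors in turn repress the genes of the family. In beta cells the family is known as an abundant group that acts on stress and survival genes such as Dnajc3 and Xiap.

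The mature 3p strands below show what the members share and where they differ. They are the RefSeq mouse sequences of build GRCm38.p6, written 5′ to 3′, with the seed (bases 2 to 8) in capitals. All 5 members were matched.
miR-200b-3p: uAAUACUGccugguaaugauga
miR-200c-3p: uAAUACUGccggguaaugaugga
miR-429-3p: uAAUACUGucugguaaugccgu
miR-200a-3p: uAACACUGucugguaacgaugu
miR-141-3p: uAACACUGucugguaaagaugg

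The family splits into a pair of seed groups. The seed AAUACUG is carried by miR-200b, miR-200c and miR-429, and the seed AACACUG by miR-200a and miR-141. Among 1738 mature mouse strands in the RefSeq table, no strand outside the family has either seed. Positions were counted from 1 at the 5′ end. From miR-200b to miR-200a the seed differs by U4C. Outside the seed miR-200a and miR-141 differ by C17A and U22G, and miR-200b and miR-200c by U11G and A22G, with 1 more base at the end of miR-200c. From miR-200b to miR-429 the differences are C9U, A19C, U20C and A22U, all outside the seed. Over the first 22 bases, 15 positions are identical in all 5 members. Cross-reading by the assays between such close sequences was not tested. The panel names 6 of the 7 assays for the human miRNA and the miR-429 assay for the mouse one.

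The genes lie in a pair of clusters, all on the minus strand. On chromosome 4 the order along the transcript is Mir200b (chr4:156055681-156055750), Mir200a (chr4:156054896-156054985) and Mir429 (chr4:156053905-156053987), which together span 1846 bases. These 3 hairpins lie within the long noncoding RNA gene Gm13648, next to Ttll10. On chromosome 6, Mir200c (chr6:124718322-124718390) comes first and Mir141 (chr6:124717914-124717985) second, within 477 bases between Phb2 and Ptpn6, with no other annotated gene over them. Positions are those of GRCm38.p6; the deposited files name no build. The chromosome 6 hairpins are shown because their main strands had the highest and the lowest ratio of the family in 1 assay set. Capitals mark the mature 5p strand, on the left, and the 3p strand, on the right.
Mir200c hairpin: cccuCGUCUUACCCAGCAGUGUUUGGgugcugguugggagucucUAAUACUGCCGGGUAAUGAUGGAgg
Mir141 hairpin: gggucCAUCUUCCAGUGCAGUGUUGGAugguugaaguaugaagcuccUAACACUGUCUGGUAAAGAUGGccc

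Spot codes divide the panel into blocks of A and of B assays, called the A set and B set here. All 5 members have an A assay, and miR-200b and miR-200c also have a B assay. Within each set the 8 spots of U6, a spliceosomal small RNA, had a mean log2 ratio of 0, so every ratio is relative to U6 of its own set. The heading alone gives the direction. The study is known for naming miR-199a-3p among miRNAs raised in low-protein islets, while the authors' deposited table lists it at 0.422, opposite to the heading. Of the other miRNAs known from the study in the same way, the authors' deposited table lists miR-152 at 0.696, also opposite, and miR-342-3p at 1.24, the way of the heading. The tally of 1 above 1 and 2 below does not settle the direction. If the ratio were turned, each miRNA and each list below would lie on the other side of 1, with the distances between miRNAs as given. In bulk islet RNA, fewer cells of a type and less RNA per cell cannot be told apart.

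Of the 7 assays, 4 were listed above 1 and 3 below, from 0.744 to 1.13, in the authors' deposited table. Over the whole panel 288 of the 566 miRNA assays with a ratio were above 1 (50.9%) and 278 below (49.1%). No family assay lay at least 1.5-fold from 1, the limit used for a call, against 35.3% of miRNA assays on the panel (18.6% above and 16.8% below). In the A set alone it was 0 of 5 members against 28.9% of miRNA assays. These panel shares include extreme ratios: over all 528 miRNA names the ratio ran from 1.1e-04 to 3.6e+07. Levels were not analysed, so poorly detected assays could not be set apart, and the shares are no measure of how steady the family is. The 25th and 75th percentiles of the panel were 0.792 and 1.27, and the range between them held 5 of the 7 family assays; miR-429 and miR-141 lay just under it.

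**Figure D1:**
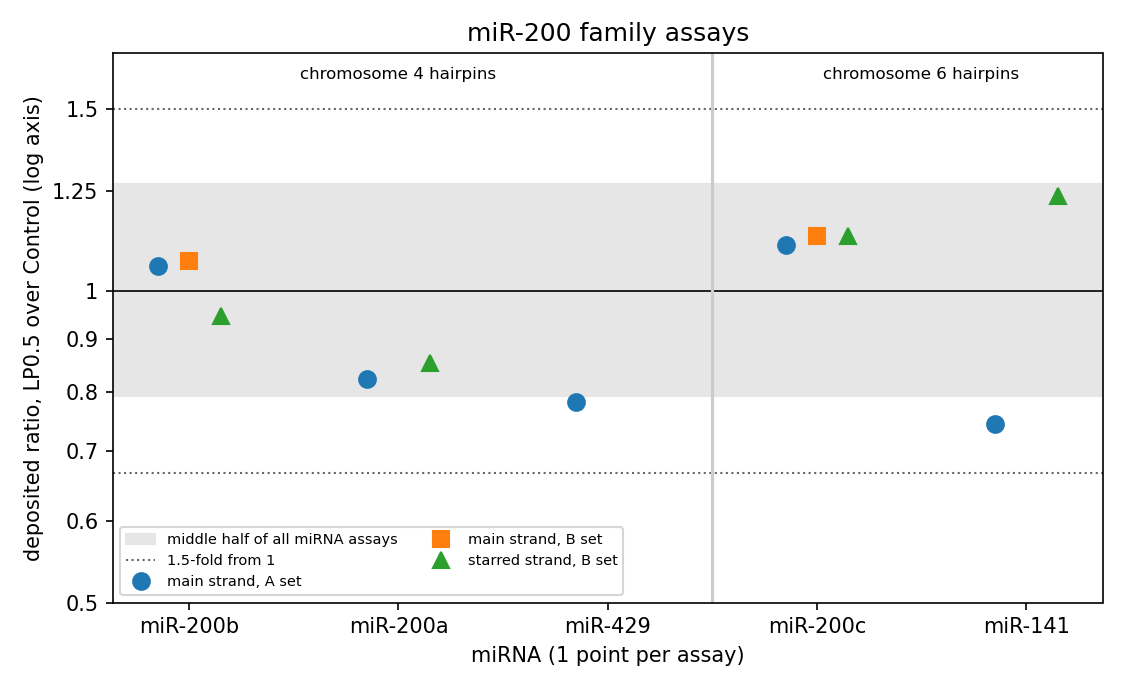
Deposited ratio, LP0.5 over Control, on a log axis for each assay of the 5 miRNAs (circles, A set; squares, B set) and of 4 starred strands (triangles), by chromosome. The grey band is the range from the 25th to the 75th percentile of all miRNA assays (0.792 to 1.27) and dotted lines mark 1.5-fold from 1. All main-strand points of miR-200b and miR-200c lie above 1, and those of miR-200a, miR-429 and miR-141 lie below it.

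miR-200c, first in the chromosome 6 cluster, had the highest ratios of the family. The authors' deposited table lists its A set assay at 1.11 and its B set assay at 1.13. These assays lay 1.02-fold apart, the fourth closest of 38 pairs of assays that share a miRNA name. miR-200b, first in the chromosome 4 cluster, had ratios of 1.06 (A) and 1.07 (B) in the authors' deposited table, 1.01-fold apart and the second closest pair. The median distance over the 38 pairs was 1.31-fold, so both repeated members gave nearer values than most repeated names. Each pair used assays of different numbers in different sets, both from the same RNA samples as far as the labels say, so this closeness is no measure of the spread between islet samples. It also depends on the U6 value of each set, as do the ranks. Relative to snoRNA135, snoRNA202, U87 and Y1 instead, miR-200c stood at 0.967 (A) and 1.04 (B). On that scale miR-200b stood at 0.923 (A) and 0.986 (B).

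The other members were each listed below 1. In the authors' deposited table miR-200a, which shares its seed with miR-141, stood at 0.822. miR-429, which shares its seed with miR-200b and miR-200c, stood at 0.782 in the authors' deposited table. miR-141, last in the chromosome 6 cluster, had the lowest ratio of the family in the authors' deposited table, 0.744, or 1.34-fold below 1. None of these is far out on the panel. Of the 304 A set miRNA assays with a ratio, 65 were lower than miR-141 (21.4%), 72 lower than miR-429 (23.7%) and 85 lower than miR-200a (28.0%). miR-200b lay above 184 of them (60.5%) and miR-200c above 199 (65.5%).

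**Figure D2:**
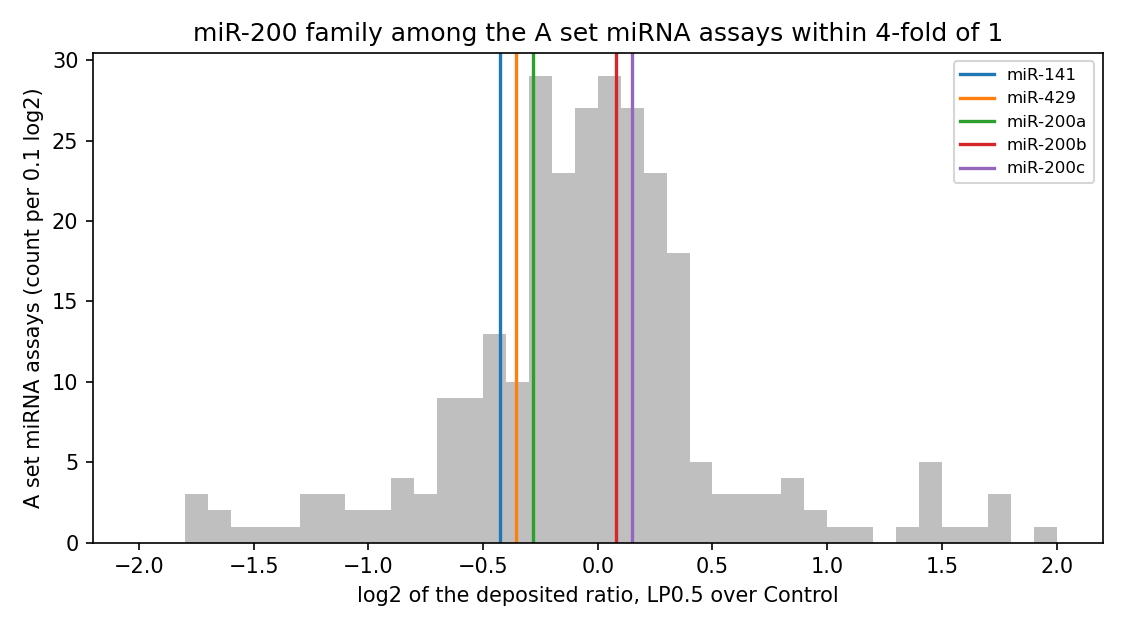
Histogram of the log2 ratio, LP0.5 over Control, of the 276 A set miRNA assays within 4-fold of 1, in bins of 0.1; 28 assays farther out are not drawn. Vertical lines mark the 5 members, which run from -0.43 (miR-141) to 0.15 (miR-200c), within the central bulk of the panel.

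Within the A set the order does not depend on the reference, since 1 factor applies to the whole set. From low to high it was miR-141, miR-429, miR-200a, miR-200b, miR-200c. Neighbours in this order differed by 1.05-fold (miR-429 over miR-141), 1.05-fold (miR-200a over miR-429), 1.29-fold (miR-200b over miR-200a) and 1.05-fold (miR-200c over miR-200b). As a yardstick, 140 pairs of A set spots of the same small RNA control differed by 1.07-fold at the median and by 1.36-fold at the 95th percentile. No neighbours in the order differed by more than 1.36-fold. Of all 10 pairs of members, 3 did, each joining one of the 2 highest with one of the 2 lowest. miR-200c stood 1.49-fold over miR-141 and 1.42-fold over miR-429, and miR-200b stood 1.42-fold over miR-141. This yardstick covers repeated spots of 1 control assay, U6 included, and not the spread between islet samples or between different assays. The 38 pairs of assays that share a miRNA name differed by 1.31-fold at the median and by 5.98-fold at the 95th percentile. No pair of members came near the latter.

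Neither the seed nor the cluster sorted the ratios. Among the members with seed AAUACUG the A set ratio ran over a 1.42-fold range, from 0.782 for miR-429 to 1.11 for miR-200c in the authors' deposited table. The pair with seed AACACUG, miR-200a and miR-141, differed by 1.11-fold. In both clusters the main strand of the hairpin nearest the 5′ end of the transcript had the higher A set ratio. On chromosome 4 miR-200b stood 1.29-fold over miR-200a, 765 bases downstream, and 1.35-fold over miR-429, 1763 bases downstream. Neither passed the 1.36-fold yardstick. On chromosome 6 miR-200c stood 1.49-fold over miR-141, 405 bases downstream. The ratio did not follow the distance across clusters, since miR-141 lies nearest to its first hairpin and had the lowest value. The starred strands, all in the B set, kept this order only on chromosome 4 (miR-200b 0.947, miR-200a 0.853). On chromosome 6 their order was the reverse in the authors' deposited table (miR-200c 1.13, miR-141 1.24).

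**Figure D3:**
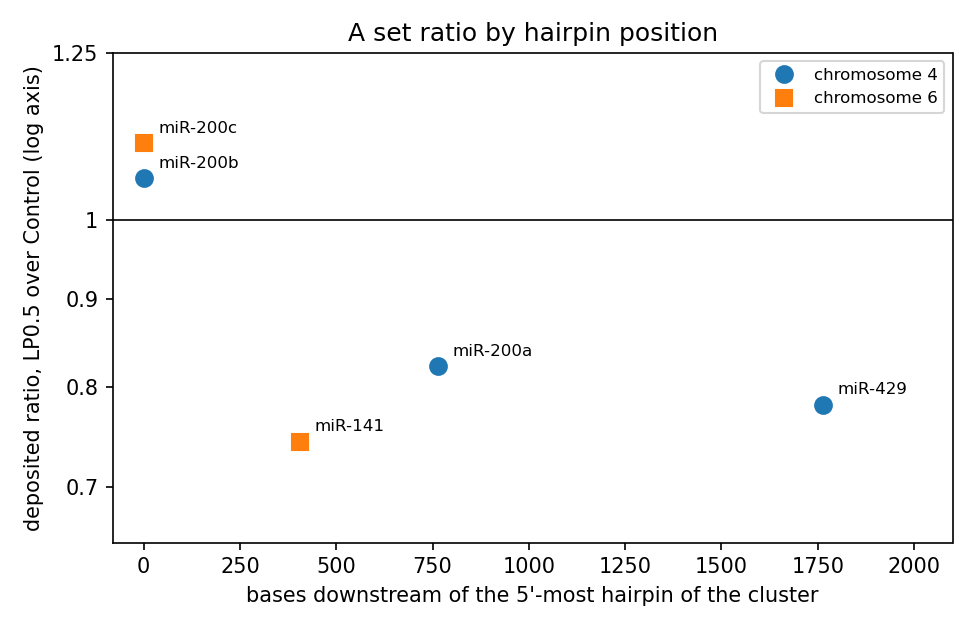
Deposited A set ratio, LP0.5 over Control, on a log axis against the bases between the start of each hairpin and that of the 5′-most hairpin of its cluster (circles, chromosome 4; squares, chromosome 6). miR-200b and miR-200c, at 0 bases, lie above 1, and miR-141 (405 bases), miR-200a (765) and miR-429 (1763) lie below it.

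The mature sequences sorted the same way at 1 base. Over the first 22 positions of the 3p strands, 1 position has a base shared by miR-200b and miR-200c and another base shared by miR-200a, miR-429 and miR-141. It is position 9, just after the seed, and is C9U from miR-200b to each of the other 3 members. Of the remaining positions, 15 were identical in all members and 6 did not separate the groups. This was seen after the ratios were known, and with 5 members place in the cluster and base 9 cannot be told apart. The groups were formed by the side of 1 in the A set, which depends on the reference. The gap between them, miR-200b over miR-200a, was 1.29-fold, under the 1.36-fold yardstick.

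The starred strands come from the other arm of the same hairpins, the 5p arm. They are shown because each is cut from the same hairpin as a member and has a value of its own; the seed is in capitals.
miR-200a-5p: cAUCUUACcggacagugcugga
miR-200b-5p: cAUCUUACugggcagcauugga
miR-200c-5p: cGUCUUACccagcaguguuugg
miR-141-5p: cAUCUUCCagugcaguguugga

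The panel held 4 starred assays for these hairpins, all in the B set, and none for miR-429. In the authors' deposited table the starred strand of miR-141 was listed at 1.24, above 1, while its main strand lay below 1 at 0.744. The strands of miR-141, like those of miR-200a, were in different sets, so their distance also depends on the U6 value of each set. In the authors' deposited table the starred strand of miR-200c stood at 1.13, level with the 1.13 of its main strand in the same set. For miR-200b the authors' deposited table lists the starred strand at 0.947 and the main strand of the same set at 1.07, a 1.13-fold difference that does not depend on the reference. In the authors' deposited table the starred strand of miR-200a stood at 0.853, below 1 like its main strand at 0.822. Main and starred strands thus lay on the same side of 1 for 2 hairpins and on opposite sides for 2. This tally depended on the reference: relative to the other small RNA controls, with or without 1 low U87 spot, 3 hairpins had both on the same side and 1, miR-141, on opposite sides. In the B set the plant assay ath-miR159a, which has no mouse target, ran from 2.59 to 3.37 in the authors' deposited table; its bearing on the B set ratios was not tested.

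The position of miR-200b and miR-200c relative to 1 depended on the reference. With the mean of snoRNA135, snoRNA202, U87 and Y1 in place of U6, the median log2 ratio over all 528 miRNA names moved from 0.01 to -0.15. On that scale miR-200b was below 1 in both sets, at 0.923 (A) and 0.986 (B), and miR-200c was at 0.967 (A) and 1.04 (B). Without 1 low U87 spot in that reference all 7 assays were below 1, with the B set assay of miR-200c at 0.978. miR-141, miR-429 and miR-200a were below 1 under each of the 4 references run. This was largely fixed in advance, since these members have A set assays only. In that set the other controls take off 0.20 on the log2 scale, with or without the U87 spot, which moves every member down. The set median takes off only -0.03. Relative to the other controls miR-141 passed the 1.5-fold limit at 0.649, 1 of 7 family assays, where 130 panel assays did so below 1 (23.0%). Relative to the median of each set, miR-141 was at 0.762 and the A set assay of miR-200c at 1.14.

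**Figure D4:**
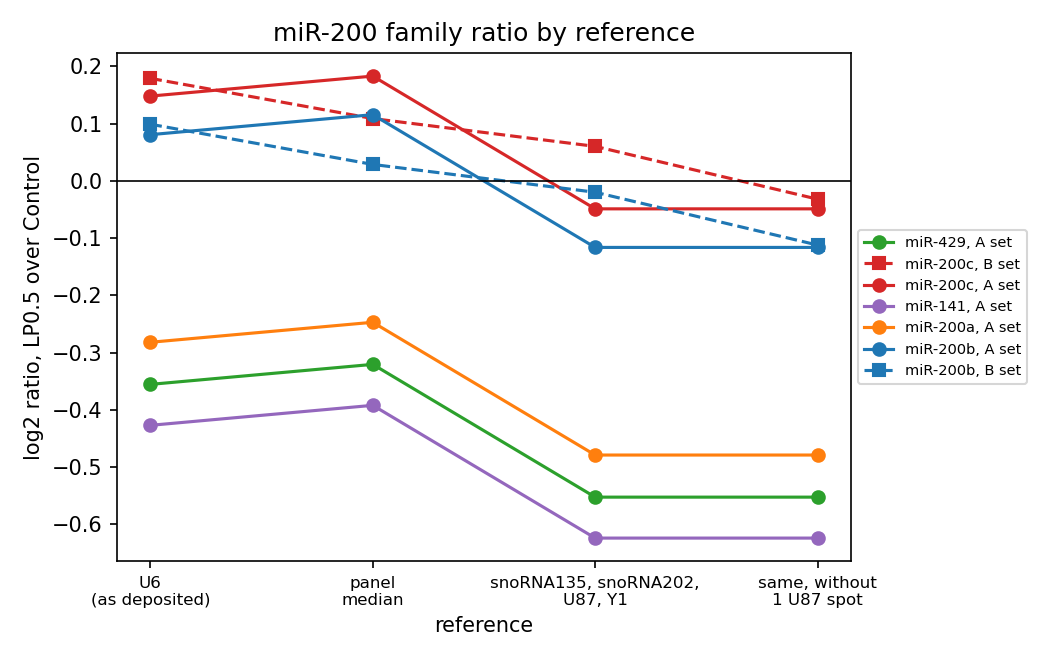
Log2 ratio, LP0.5 over Control, of the 7 assays with U6, the set median, 4 other small RNA controls, or those controls without 1 U87 spot as the reference (solid lines and circles, A set; dashed lines and squares, B set; lines only join values of 1 assay). miR-141, miR-429 and miR-200a stay below 0 under each, while miR-200b and miR-200c cross 0. For A set assays the reference with and without the U87 spot is the same.

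Other miRNAs known from epithelial cells were listed on both sides of 1. Of 18 on the list, 8 were above 1 and 10 below, with a median ratio of 0.936; over all 528 names 266 were above and 262 below, with a median of 1.01. At least 1.5-fold from 1 were 3, all below, where 17.6% of names were as far below and 18.8% as far above. They were miR-215, listed at 0.160 in the authors' deposited table, its relative by cluster miR-194 at 0.653, and miR-101b, which targets the chromatin enzyme Ezh2, at 0.663. miR-205, which represses Zeb1 and Zeb2 like the miR-200 family, stood at 0.722 in the authors' deposited table. miR-34a, induced by p53 and a repressor of Snai1, stood at 0.679 there. miR-203, a miRNA of stratified epithelia, stood at 1.04 and the islet miR-375 at 1.17 in the authors' deposited table. Were the ratio turned, miR-215, miR-194 and miR-101b would be above 1, and the list would have 10 above and 8 below. Relative to the other small RNA controls the split was 3 above and 15 below, where all names split into 197 above and 331 below.

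MiRNAs known to favour the mesenchymal state went both ways. Of 12, 8 were above 1 and 4 below, with a median ratio of 1.12, and 2 lay at least 1.5-fold from 1 on each side, a share near that of all names (18.8% above and 17.6% below). Above were miR-155 at 1.59 in the authors' deposited table, and miR-10b, as the mean of assays at 1.19 and 2.18. Below were miR-9 at 0.558 and miR-199a-5p at 0.403 in the authors' deposited table. Relative to the other controls 6 were above and 6 below, against 197 and 331 of all names.

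Acinar and duct cells are also known to express the miR-200 family, so markers of other cells in an islet preparation are given beside it. No duct marker was listed. These lists are not separate from those above: miR-375 and miR-7a are both epithelial and islet endocrine members. Likewise miR-199a-5p and miR-214 are on the mesenchymal state and the mesenchymal cell list. Of 4 acinar miRNAs 3 were below 1, with a range from 0.726 to 1.32 and a median of 0.958. The 5 islet endocrine miRNAs ranged from 0.523 to 1.17 with a median of 1.03, 3 above 1 and 2 below. Both endothelial strands of miR-126 were below 1 (0.647 and 0.975), and the 6 mesenchymal cell miRNAs ranged from 0.403 to 7.14 with a median of 0.805. That median lay in a gap, with the nearest values at 0.459 and 1.41. Of 6 blood miRNAs 5 had a ratio, from 0.305 to 1.78 with a median of 1.20. At least 1.5-fold from 1 were 2 mesenchymal cell miRNAs above and 3 below, and 1 blood miRNA above and 2 below. For the endocrine list it was 0 above and 1 below, for the endothelial strands 0 and 1, and for the acinar list 0 and 0. Of all 528 names 18.8% were as far above and 17.6% as far below. Relative to the other small RNA controls the endocrine split was 1 above and 4 below, and the splits of the other marker lists stayed the same. All 528 names split into 266 above and 262 below as deposited, and 197 and 331 relative to those controls. Names with a pair of assays are means, even where the assays lay on opposite sides of 1. These were miR-143, at 0.190 (B) and 1.11 (A), and miR-217, at 0.950 (B) and 1.83 (A). The 7.14 is 1 B set assay of miR-199b. All of these values rest on the authors' deposited table. The levels of these markers were not analysed here, and their part in the ratios of the miR-200 family was not tested.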

How the data were processed

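Expression in 6 samples of each diet was measured by TaqMan RT-PCR, per the labels' protocols. The authors deposited 1 linear ratio (fold value) per spot, with the direction taken from the heading, per the file headers; 190 of 846 spots had none. The submitters' processing notes name limma, with no version or role. The other deposited table supplied spot and miRNA names; its 12 per-sample columns match no label and were not used, so the planned limma test and any depth or cycle value are absent. No error can be given.

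Ratios were taken to log2, repeated assays of a name were averaged on that scale, and the assay set was read from the spot code. Sequences came from RefSeq tables (GRCm38.p6). Named miRNAs were all family assays and starred strands, and miR-205, miR-203, miR-34a and miR-375. Members of the epithelial and mesenchymal state lists at least 1.5-fold from 1 were also named. Members of the cell marker lists past that limit were counted and not named for it. For the direction miR-199a-3p, miR-152 and miR-342-3p were added, and for the spread of marker assays miR-143, miR-217 and miR-199b. As shared members of lists miR-7a and miR-214 were added. The members, lists and yardsticks were chosen with earlier results of these data known. Older panel names stood for miR-7a, miR-101a, miR-30a, miR-199a-5p and both miR-126 strands. Alternatives changed the reference, assay, strand and fold limit. The reference step was tested on simulated data with a constant shift per set and little noise. This checked the calculation only and not the choice of reference. Python 3.11.15, numpy 2.4.6, pandas 2.3.3 and matplotlib 3.10.9 were used.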

Additional observations from a re-analysis of the deposited data

Results flagged for a closer look

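The plant miRNA ath-miR159a, a negative control outside the comparison of mouse miRNAs, had a ratio at all 8 of its B set spots in the authors' deposited table, with a median of 3.01, and at 2 of its 8 A set spots. The same B set holds 1 assay each of miR-200b and miR-200c, with ratios of 1.07 and 1.13 in the authors' deposited table, and the 4 starred strands.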

How the results depend on the processing

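No paired analysis was possible because the per-sample columns carry no sample name of the labels and the ratios come from no test. For the same reason leaving out replicates, a limit on threshold cycles and other per-sample references were not run. The median log2 ratio of the 5 names was -0.28, between -0.48 and -0.25 over 6 alternatives; over 9 names, with starred strands added, it was -0.08. Names below 1 were 3 of 5, 4 of 5 with the snoRNA135, snoRNA202, U87 and Y1 reference, 5 of 5 with that reference without 1 U87 spot, or 5 of 9 with starred strands added. Family assays at least 1.5-fold from 1 were 0, and 1 with the snoRNA, U87 and Y1 reference, with or without that spot; the shift of the reference itself, 0.20 on the log2 scale in the A set, carries miR-141 over the limit. All 35 values of single members under alternatives moved by less than 0.21, the median SD of the log2 ratio over repeated control spots, although miR-200b and miR-200c changed sides of 1 within it. This count was largely fixed in advance and is no measure of how steady the members are. A change of reference takes 1 constant off each set. Members with 1 assay cannot move when only the choice of assay changes, and adding starred strands moves no main strand. Panel counts at 1.5-fold (105 above, 95 below) were 70 and 67 at 2-fold, and 91 and 130 with the other controls, or 82 and 135 without the U87 spot. The alternative without the U87 spot and the one with A set assays only were chosen after seeing the data. Without replicate values and cycle values, precision could not be assessed.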
